A study of Mus musculus with 6 samples.

Results

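The subunits of respiratory complex I were examined in heart ventricles of dystrophic mice fed finerenone, a non-steroidal antagonist of the mineralocorticoid receptor. Subunits were taken by gene symbol: every array row whose annotation gave a single symbol starting with Nduf, then a, b, c, s or v and a number, or the symbol Ndufab1. Assembly factors and pseudogenes were left out. This gave 34 of the 30063 genes tested, each from 1 array row (a transcript cluster). Ndufa11 and Ndufb4 lay in rows with several symbols and were not used, and other subunits were not analysed here. No measured value entered the choice of the 34 genes, although earlier results of these data were known.

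Complex I is the entry point of electrons from NADH into the respiratory chain of the inner mitochondrial membrane. Its matrix arm oxidises NADH at a flavin and passes the electrons along iron-sulfur clusters to ubiquinone, and its membrane arm pumps protons, which drive ATP synthesis. A small set of core subunits carries out this chemistry, part of it encoded in mitochondrial DNA. The many accessory subunits, all nuclear, stabilise the complex and are needed for its assembly. Ventricular muscle is rich in mitochondria and draws most of its ATP from this chain.

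Each value is the log2 signal of 1 Affymetrix array, with 1 male mouse per array. The finerenone group held 3 "Het" mice on the C57BL/10 background, whose chow carried the drug at 100 ppm starting at 4 weeks. The 3 untreated Het mice ate the same chow with nothing added, and all mice were 20 weeks old at collection. Both groups lacked dystrophin and carried a single working utrophin allele (utrn+/-; mdx), so no healthy heart was part of the comparison. Mice were assigned to the groups at random, per the labels.

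One array stood apart from the other 5. In untreated replicate 1, Alb (albumin, made by hepatocytes) had a log2 signal of 16.69, against 4.10 to 4.38 in the finerenone arrays and 4.14 and 4.24 in the other untreated arrays. All 4 measured hepatocyte markers (of 5 listed) were highest there, with list means of 4.21 to 4.29 in finerenone hearts, 9.91 in untreated replicate 1 and 4.19 and 4.24 in untreated replicates 3 and 2. The 11 measured cardiomyocyte markers (of 12 listed) averaged 17.60 to 17.67 in finerenone hearts and 17.46 to 17.72 in untreated hearts, lowest in untreated replicate 1. The row of Tnnt2 (cardiac troponin T) lay at the top of the scale in 5 arrays and could hide a rise. Among rows below the top of the scale, Nppa (atrial natriuretic peptide) had 19.09, 19.59 and 18.70 in finerenone hearts, against 17.85, 19.22 and 18.95 in untreated hearts. Tnni3 (cardiac troponin I) had 15.49, 15.49 and 15.50 in finerenone hearts, against 15.24, 15.61 and 15.63 in untreated hearts. Both were lowest in untreated replicate 1. So were Myl2 (11.94, against 12.41 to 12.66 elsewhere), Tnnc1 (18.2, against 18.25 to 18.52) and Myl3 (16.81, against 16.85). Ttn, Ryr2, Myh6 and Atp2a2 were not. Ttn had 16.43, 16.14 and 17.12 in finerenone hearts, against 16.90, 16.43 and 17.12 in untreated hearts. Ryr2 had 16.19, 15.80 and 16.77 in finerenone hearts, against 16.48, 16.11 and 16.79 in untreated hearts. Myh6 and Atp2a2 each read 19.65 in untreated replicate 1 and were not lowest there either. Differences are therefore given with and without untreated replicate 1. The part of the liver signal, and of those heart muscle markers that were lower in that array, in the differences was not tested. In bulk tissue, fewer cells of a type and less RNA per cell cannot be told apart.

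Signal of complex I subunits was on the whole higher in finerenone hearts by a small amount, and by less when untreated replicate 1 was left out. Of the 34 subunits, 29 had a difference (finerenone minus untreated, log2) above 0, as did 58.2% of all genes. The median difference over the subunits was 0.28, with a range of -0.11 (Ndufv1) to 0.74 (Ndufa8), and over all genes it was 0.03. Without untreated replicate 1 the median over the subunits was 0.10, 26 were above 0 and the range was -0.24 to 0.46, while the median over all genes stayed at 0.03. All 34 differences moved downward when that array was left out, Ndufb9 by less than 0.01. The 4 that were below 0 apart from Ndufb9 (Ndufv1, Ndufa13, Ndufs1 and Ndufa9) thereby lay farther from 0.

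No subunit passed the adjusted threshold. In limma, with Benjamini-Hochberg adjustment over all 30063 genes, 0 subunits and 0 genes had an adjusted p below 0.05 (0% called), and the smallest adjusted p was 0.597. At an unadjusted p below 0.05, 6 subunits were higher and 0 lower, where 5.69% of all genes were called higher and 2.12% lower. Without untreated replicate 1, 3 subunits were higher at that level (4.5% of all genes were called higher) and 0 were lower (1.93%), and the smallest adjusted p was 0.772. In either direction, leaving out finerenone replicate 1 gave 1 subunit at that level (1883 of the 30063 genes). Leaving out untreated replicate 2 gave 12 (2783 genes). The number was 3 without finerenone replicate 2 (1685 genes), finerenone replicate 3 (2706 genes) or untreated replicate 3 (1919 genes). The 3 finerenone arrays all lay above the 3 untreated arrays for 6 subunits (8.17% of all genes), and all below them for 0 (4.17%). Without untreated replicate 1, they all lay above the other untreated arrays for 6 subunits (13.9% of all genes), and all below for 2 (8.36%).

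Untreated replicate 1 was the only array in which all subunits deviated the same way. When each subunit was set against its own mean over the 6 arrays, the median deviation was 0.11, 0.13 and 0.04 in finerenone replicates 1, 2 and 3, against -0.36, 0.07 and -0.04 in untreated replicates 1, 2 and 3. Untreated replicates 2 and 3 thus lay within or just under the finerenone range, and untreated replicate 1 lay far under both. All 34 subunits were below their own mean in untreated replicate 1, and 29 had their lowest of 6 values there, as did 23.6% of all genes. The highest value was in finerenone replicate 1 for 12 subunits, in finerenone replicate 2 for 10, in finerenone replicate 3 for 3, and in untreated replicates 2 and 3 for 4 and 5.

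**Figure D1:**
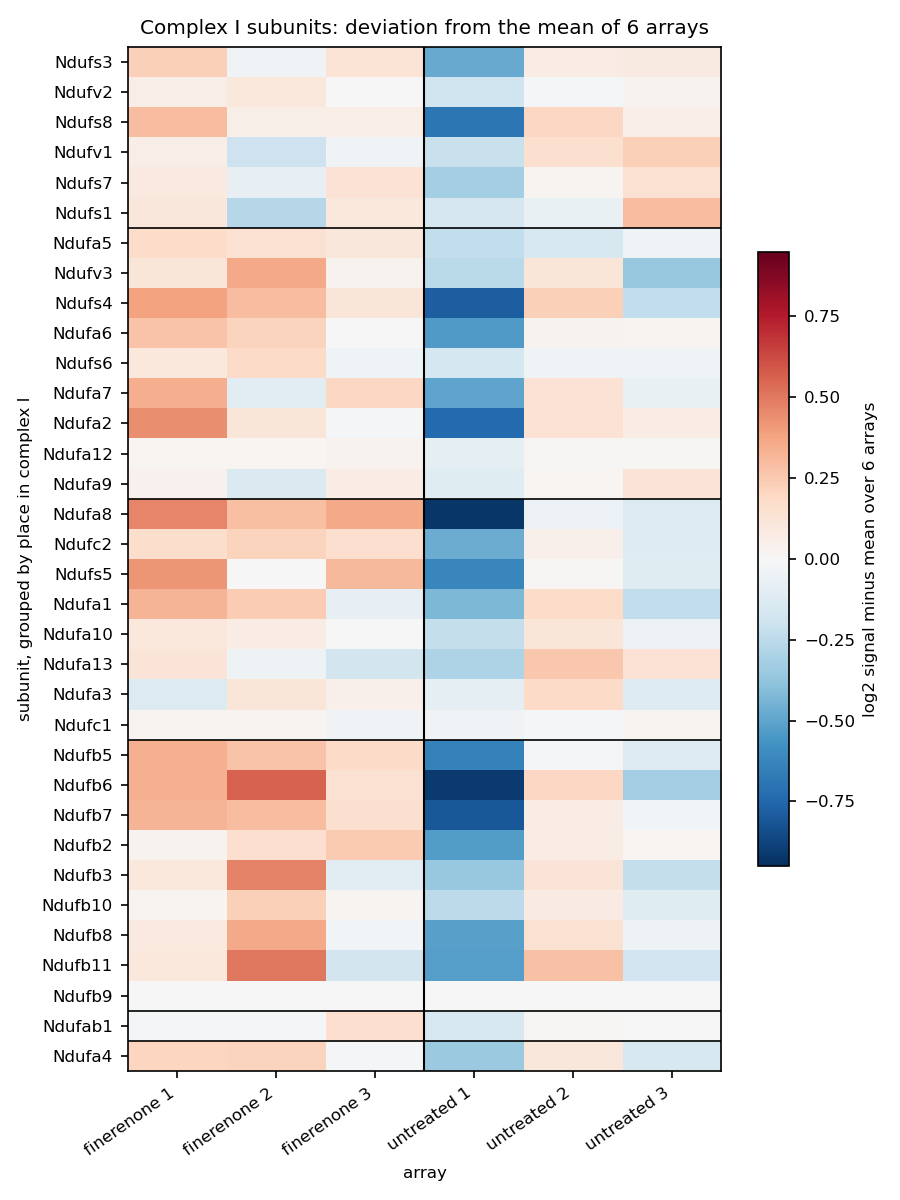
Heat map of the 34 subunits (rows, grouped by place in complex I) in the 6 arrays (columns, finerenone left, untreated right); colour gives the log2 signal minus the subunit's mean over 6 arrays. The column of untreated replicate 1 is blue in nearly every row (median -0.36), and the column of untreated replicate 2 (median 0.07) resembles the finerenone columns (medians 0.04 to 0.13).

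The core subunits of the matrix arm carry the flavin and the iron-sulfur clusters, and 6 are described here. Their median difference was 0.11, and -0.01 without untreated replicate 1. Ndufv1, which binds NADH and the flavin, had log2 signals of 12.98, 12.72 and 12.88 in finerenone hearts, against 12.70, 13.07 and 13.14 in untreated hearts. It was thus lower by 0.11 on average, and the only untreated value below the finerenone ones was that of replicate 1. Leaving that array out gave a difference of -0.24 ± 0.11 (SE) with groups that did not overlap (8.36% of all genes were apart in that direction), at an adjusted p of 0.777 in limma. Its partner Ndufv2, which holds an iron-sulfur cluster beside the flavin, had 12.95, 12.99 and 12.89 in finerenone hearts, against 12.70, 12.87 and 12.92 in untreated hearts, a difference of 0.11 ± 0.09 (SE), or 0.05 without untreated replicate 1. Those groups overlapped.

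Ndufs1, a large subunit that carries several iron-sulfur clusters, gave 15.34, 14.96 and 15.33 in finerenone hearts, against 15.07, 15.16 and 15.52 in untreated hearts. Both groups spanned nearly the same range, and the difference was -0.04 ± 0.16 (SE), or -0.13 without untreated replicate 1. Ndufs3, a scaffold of the ubiquinone-reducing part, measured 13.19, 12.93 and 13.09 in finerenone hearts, against 12.48, 13.03 and 13.05 in untreated hearts. Untreated replicates 2 and 3 lay inside the finerenone range, so the difference of 0.22 became 0.03 without untreated replicate 1. Ndufs7 and Ndufs8 carry the last clusters before ubiquinone. Ndufs7 stood at 13.09, 12.92 and 13.13 in finerenone hearts, against 12.67, 13.02 and 13.14 in untreated hearts. Ndufs8 stood at 16.97, 16.73 and 16.74 in finerenone hearts, against 15.99, 16.87 and 16.74 in untreated hearts. For both, the low value was untreated replicate 1, and without it the differences of 0.11 and 0.28 became -0.03 and 0.01. None of the 6 core subunits had an unadjusted p below 0.05 in either fit.

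Accessory subunits of the matrix arm had a median difference of 0.30 over 9 measured genes, with 8 above 0, and of 0.12 without untreated replicate 1. Ndufa5, which sits on the ubiquinone-reducing part, had 14.03, 14.00 and 13.96 in finerenone hearts, against 13.62, 13.70 and 13.81 in untreated hearts. Every finerenone value was above every untreated one, and the difference changed little without untreated replicate 1. It was 0.29 ± 0.08 (SE, 95% interval 0.09 to 0.48) with all arrays and 0.24 ± 0.09 without that one, at adjusted p = 0.597 and 0.772 in limma. Ndufs4, whose loss causes an encephalopathy in mice, had 14.44, 14.35 and 14.17 in finerenone hearts, against 13.27, 14.28 and 13.82 in untreated hearts. Here untreated replicate 2 lay among the finerenone values. The difference was 0.53 ± 0.25 (SE), and 0.27 ± 0.17 without untreated replicate 1.

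Ndufv3, at the NADH-binding tip, had its lowest value in untreated replicate 3 and measured 13.22, 13.47 and 13.14 in finerenone hearts, against 12.85, 13.22 and 12.75 in untreated hearts. The difference of 0.33 ± 0.15 (SE) was 0.29 without untreated replicate 1, and the groups overlapped at untreated replicate 2. Ndufa6, of the LYR protein family, gave 13.11, 13.05 and 12.83 in finerenone hearts, against 12.30, 12.87 and 12.86 in untreated hearts, and its difference was 0.32, or 0.13 without untreated replicate 1. Ndufa2, Ndufa7 and Ndufs6 differed by 0.36, 0.30 and 0.17, and by 0.08, 0.12 and 0.12 without it. Ndufa12 kept an almost fixed level, 13.75 to 13.76 in finerenone hearts and 13.64 to 13.74 in untreated hearts, and its groups stood apart on a difference of 0.04, or 0.01 without untreated replicate 1. Ndufa9, which lies where the arms join, had overlapping groups: 15.94, 15.76 and 15.97 in finerenone hearts, against 15.78, 15.92 and 16.02 in untreated hearts (difference -0.01 ± 0.10, SE, and -0.08 without untreated replicate 1).

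The proximal part of the membrane arm held the widest difference. Ndufa8, a subunit with paired cysteine motifs on the outer face of the inner membrane, had 15.77, 15.59 and 15.67 in finerenone hearts, against 14.38, 15.25 and 15.18 in untreated hearts. The groups did not overlap, with or without untreated replicate 1 (8.17% and 13.9% of all genes were apart in that direction). The difference was 0.74 ± 0.24 (SE, 1.67-fold, 95% interval 0.17 to 1.31), and 0.46 ± 0.10 without that array, at adjusted p = 0.597 and 0.772 in limma. Ndufs5, of the same cysteine-motif family, measured 8.64, 8.22 and 8.53 in finerenone hearts, against 7.60, 8.23 and 8.11 in untreated hearts. Finerenone replicate 2 fell among the untreated values there, and the difference of 0.48 ± 0.19 (SE) became 0.29. Ndufc2 measured 14.10, 14.14 and 14.09 in finerenone hearts, against 13.46, 13.98 and 13.81 in untreated hearts. All finerenone values were higher and close together, with a difference of 0.36 ± 0.14 (SE), and of 0.21 ± 0.09 without untreated replicate 1.

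The other proximal subunits differed less. Ndufa13, also known as GRIM-19 and needed for assembly of the complex, had 13.47, 13.30 and 13.17 in finerenone hearts, against 13.05, 13.60 and 13.48 in untreated hearts. The difference of -0.06 ± 0.16 (SE) became -0.23 ± 0.12 without untreated replicate 1, where the groups no longer overlapped (adjusted p = 0.783 in limma). In that fit 8.36% of all genes were apart and lower. Ndufa1 and Ndufa10 differed by 0.33 and 0.12, and by 0.19 and 0.03 without that array. Ndufa3 and Ndufc1 differed by 0.03 and 0.01, and by -0.01 and 0.00 without it. Over the 8 measured proximal subunits the median was 0.22, and 0.11 without untreated replicate 1.

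Subunits of the distal membrane arm, the Ndufb series, had a median difference of 0.30 over 9 measured genes, 8 of them above 0, and of 0.11 without untreated replicate 1. Ndufb5, which crosses the membrane once, had 10.73, 10.66 and 10.57 in finerenone hearts, against 9.75, 10.37 and 10.26 in untreated hearts. The groups were apart in both fits, with a difference of 0.53 ± 0.17 (SE, 95% interval 0.12 to 0.94), and of 0.34 ± 0.10 without untreated replicate 1 (adjusted p = 0.597 and 0.772 in limma). Ndufb6, another membrane-crossing subunit, measured 15.34, 15.56 and 15.15 in finerenone hearts, against 14.09, 15.20 and 14.67 in untreated hearts. Untreated replicate 2 lay above finerenone replicate 3, and the difference of 0.70 ± 0.28 (SE, 1.62-fold) became 0.41 ± 0.20.

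Ndufb7, the third subunit with paired cysteine motifs among those shown, stood at 10.09, 10.06 and 9.92 in finerenone hearts, against 8.96, 9.84 and 9.74 in untreated hearts. The groups did not overlap, but untreated replicates 2 and 3 were close under the finerenone values, and the difference of 0.51 ± 0.23 (SE) became 0.23 ± 0.10. Ndufb10, the fourth member of that family in the complex, differed by 0.19, and by 0.11 without untreated replicate 1. Ndufb2, Ndufb3, Ndufb8 and Ndufb11 differed by 0.28 to 0.31, and by 0.09 to 0.21 without that array. Ndufb9, an LYR protein that binds the acyl carrier, read 19.93 in all 6 arrays, within 0.01 of each array's highest value. Its row was at the ceiling of the scale, so its difference of 0.00 says nothing of the transcript.

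A pair of subunits stood outside these groups. Ndufab1, the mitochondrial acyl carrier protein, which occurs in both arms and also serves fatty acid synthesis, had 8.73, 8.73 and 8.90 in finerenone hearts, against 8.59, 8.75 and 8.74 in untreated hearts. The groups overlapped, with a difference of 0.09 ± 0.09 (SE), or 0.04 without untreated replicate 1. Ndufa4 carries a complex I name but is now counted as a subunit of complex IV. It measured 19.83, 19.84 and 19.61 in finerenone hearts, against 19.27, 19.73 and 19.47 in untreated hearts, close enough to the ceiling to limit any rise. Its difference was 0.27 ± 0.14 (SE), or 0.16 without untreated replicate 1, and the median over the subunits was 0.28 without it too.

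**Figure D2:**
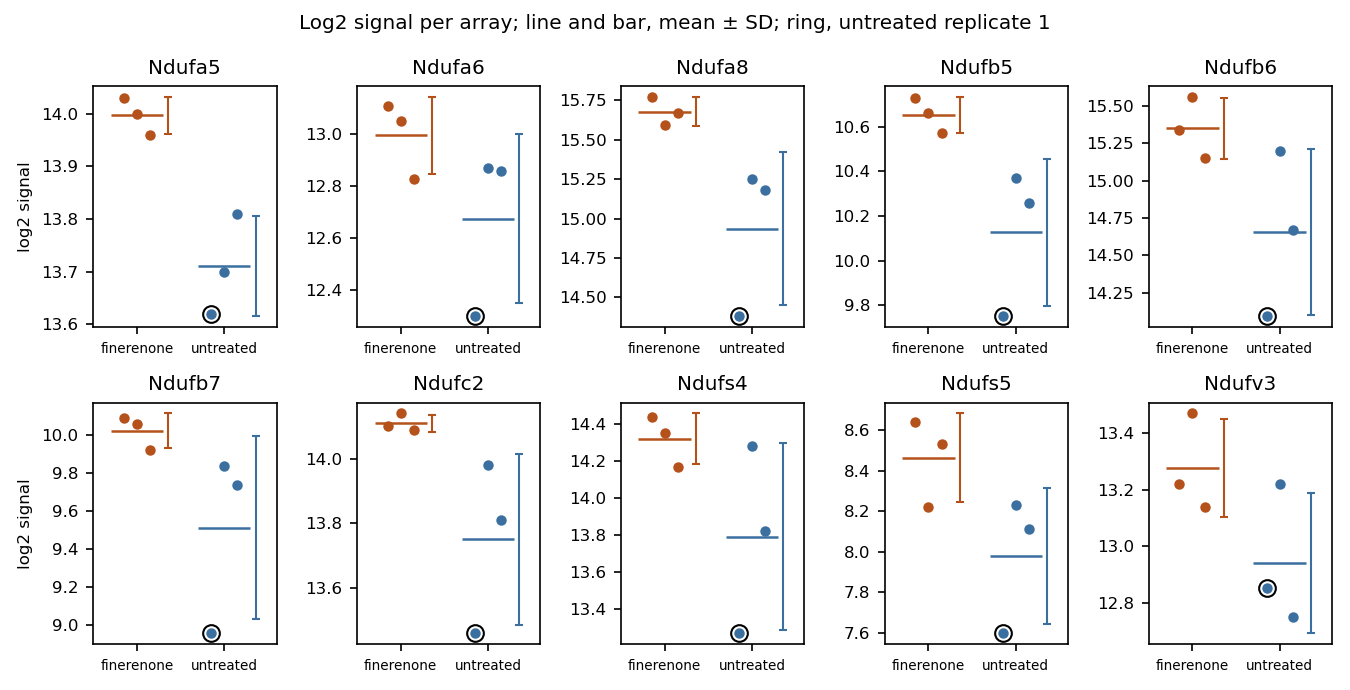
Log2 signal per array of the 10 accessory subunits with the smallest unadjusted p, finerenone left and untreated right; lines are means, bars SD (n = 3 each), and the ring marks untreated replicate 1. Untreated replicate 1 is the lowest point in every panel except Ndufv3, and the groups stay apart in Ndufa5, Ndufa8, Ndufb5, Ndufb7 and Ndufc2. Of all genes, 8.17% were apart and higher, and 13.9% without untreated replicate 1.

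**Figure D3:**
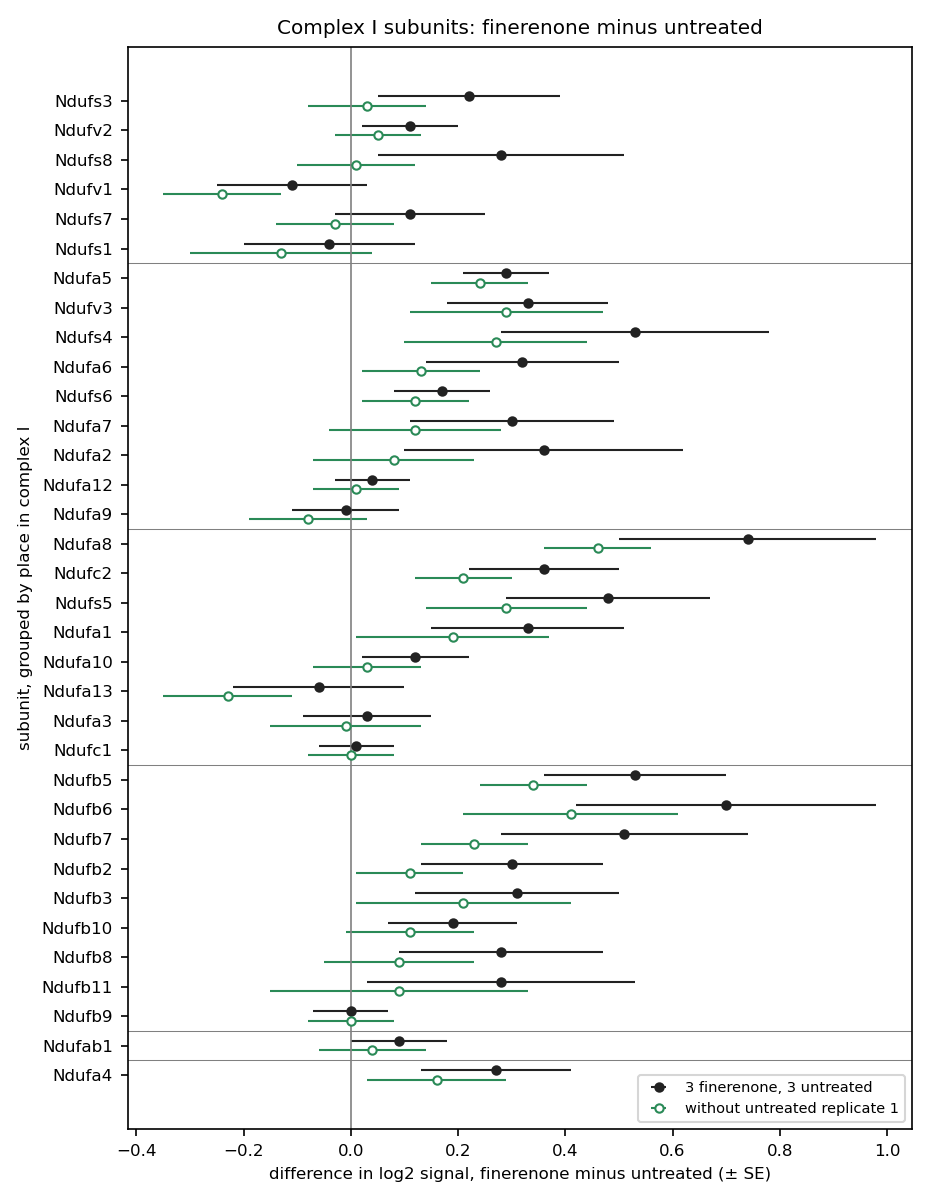
Difference in log2 signal, finerenone minus untreated, with its standard error for the 34 subunits grouped by place in complex I. Filled points use all 6 arrays (median 0.28) and open points leave out untreated replicate 1 (median 0.10); in the second fit the 6 core subunits at the top lie on both sides of 0, with a median of -0.01 and Ndufv1 lowest at -0.24.

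Ndufa5, Ndufa8 and Ndufb5 were the 3 subunits with an unadjusted p below 0.05 both with and without untreated replicate 1, and their promoters are shown to set those genes in context. The sequences are from RefSeq (GRCm38.p6), run 5′ to 3′ on the gene's strand, and cover 250 bases before to 50 after a transcript start. Capitals mark a match to the motif of NRF1, a transcription factor of many respiratory chain genes. Ndufa8 lies at chr2:36049289-36049588 (minus strand), Ndufa5 at chr6:24527477-24527776 (minus strand, 1 of 2 starts in the table) and Ndufb5 at chr3:32736813-32737112 (plus strand).
Ndufa8: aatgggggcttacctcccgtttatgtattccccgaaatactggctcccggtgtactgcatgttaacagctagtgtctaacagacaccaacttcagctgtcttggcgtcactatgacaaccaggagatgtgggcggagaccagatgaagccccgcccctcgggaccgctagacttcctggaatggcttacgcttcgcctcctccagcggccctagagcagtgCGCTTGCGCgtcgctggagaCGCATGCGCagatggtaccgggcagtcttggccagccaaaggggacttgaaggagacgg
Ndufa5: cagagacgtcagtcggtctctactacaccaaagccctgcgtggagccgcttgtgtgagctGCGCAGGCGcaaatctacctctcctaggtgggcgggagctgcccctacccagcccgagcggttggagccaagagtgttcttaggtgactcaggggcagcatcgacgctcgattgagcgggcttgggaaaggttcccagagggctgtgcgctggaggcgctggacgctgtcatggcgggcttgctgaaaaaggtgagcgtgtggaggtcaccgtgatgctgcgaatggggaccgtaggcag
Ndufb5: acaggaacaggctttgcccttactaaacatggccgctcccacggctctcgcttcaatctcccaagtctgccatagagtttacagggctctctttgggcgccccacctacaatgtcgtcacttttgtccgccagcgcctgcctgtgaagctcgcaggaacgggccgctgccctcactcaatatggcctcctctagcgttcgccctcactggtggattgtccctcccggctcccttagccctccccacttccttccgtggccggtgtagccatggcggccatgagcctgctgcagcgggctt

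Of the 34 subunits, 31 had a promoter in the RefSeq table. The NRF1 motif, searched as GCGCANGCG on both strands with any base at N, was found for 6 of them (19.4%: Ndufa5, Ndufa6, Ndufa8, Ndufb10, Ndufs5 and Ndufs6), against 7.03% of 27025 genes with a promoter. A motif of YY1, AAGATGGCG on either strand, was found for 5 (16.1%: Ndufa9, Ndufc1, Ndufs4, Ndufs6 and Ndufs7), against 1.64% of all genes, and each of these matches began 23 to 36 bases after the transcript start. The motif of ETS factors such as GABPA, CCGGAAGT, was found for 1 (Ndufs3, 3.23%, against 4.31%), and that of the oestrogen-related receptors, TCAAGGTCA, for 0 (against 0.466%). With 1 base added to the end of the motif, a longer form that was searched first, the NRF1 motif (with C) was found for 5 subunits (16.1%, against 5.19% of all genes) and the YY1 motif (with G) for 4 (12.9%, against 0.995%). In the subunit promoters, 0 pairs of matches of different motifs overlapped. Member promoters were richer in G and C, with a median of 59.0% against 52.7% over all promoters, and the shares were not adjusted for that. A match is a match of letters only, and subunits with a match to any of these motifs had differences from -0.01 (Ndufa9) to 0.74 (Ndufa8).

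The 34 genes lay on 14 chromosomes. Their median gene span was 8.10 kb, against 8.98 kb over all genes with a span. Across the 34 subunits, the difference had a correlation of 0.00 with log10 gene span and of -0.13 with mean signal, values that share the same 6 arrays and are given as a description. With a smooth trend over signal level and gene span removed from each array, the median over the subunits was 0.13, and 26 of the 34 were above 0. All 34 subunits had a mean signal above 6, and so above the array medians of the negative control probe sets, which lay between 5.04 and 5.33.

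Assembly factors help to join the subunits but are not part of the finished complex. Of 19 listed, 17 were measured, and 16 were above 0 with a median difference of 0.19; without untreated replicate 1, 11 were above 0 and the median was 0.08. Tmem70, which assists assembly of complex I and of ATP synthase, had 9.81, 10.22 and 10.23 in finerenone hearts, against 9.06, 9.83 and 9.73 in untreated hearts, a difference of 0.55 ± 0.23 (SE). Untreated replicate 2 lay level with finerenone replicate 1, and without untreated replicate 1 the difference was 0.31. Timmdc1, an assembly factor of the membrane arm, differed by 0.30, and Ndufaf2, a relative of Ndufa12, by 0.17; without that array they differed by 0.18 and 0.19. None of the 17 had an unadjusted p below 0.05 in either fit.

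The mitochondrial genome encodes the remaining core subunits, of which 3 of 7 were measured in rows of their own. ND3 read 19.93 in all 6 arrays, at the ceiling. ND2 measured 19.14, 19.18 and 19.18 in finerenone hearts, against 19.44, 19.27 and 19.10 in untreated hearts, a difference of -0.11 ± 0.10 (SE), or -0.02 without untreated replicate 1. ND6 measured 16.94, 17.14 and 16.76 in finerenone hearts, against 17.07, 16.77 and 16.67 in untreated hearts, a difference of 0.11 ± 0.15 (SE), or 0.23 without that array. In neither was untreated replicate 1 the lowest array, which it was for 29 of the 34 nuclear subunits.

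Regulators of mitochondrial biogenesis had a median difference of -0.05, with 5 of 13 measured genes above 0 (14 listed), and of -0.07 without untreated replicate 1. Ppargc1a, the coactivator PGC-1 alpha, had 14.88, 14.26 and 15.31 in finerenone hearts, against 14.33, 14.56 and 14.55 in untreated hearts. The finerenone values spread to both sides of the untreated ones, and the difference was 0.34 ± 0.25 (SE), or 0.26 without untreated replicate 1. Pprc1, a related coactivator, differed by -0.20 ± 0.08 (SE) at signals of 5.47 to 5.78, near the negative controls (adjusted p = 0.625 in limma), and by -0.20 without untreated replicate 1 too. Gabpa, an ETS factor that binds many promoters of respiratory genes, differed by -0.14 ± 0.09, or -0.09 without it.

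Among 7 enzymes that share NADH or ubiquinone with complex I, the median was 0.04, and -0.06 without untreated replicate 1. Nnt, the transhydrogenase that uses the proton gradient to pass electrons from NADH to NADP, had 14.87, 14.62 and 14.98 in finerenone hearts, against 15.28, 15.25 and 15.14 in untreated hearts. All finerenone values were below all untreated ones, as for 4.17% of all genes (8.36% without untreated replicate 1). The difference of -0.40 ± 0.11 (SE) was -0.37 without untreated replicate 1, at adjusted p = 0.597 and 0.772 in limma. Sqor, a sulfide oxidase, and Dld, a subunit of several dehydrogenases, differed by 0.13 and 0.15, and by 0.08 and 0.09 without that array.

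Complexes II to V complete the respiratory chain and include ATP synthase. Of their 42 measured subunits (43 listed), 32 were above 0, with a median of 0.15, and without untreated replicate 1 the median was 0.05 with 30 above 0. Atp5e, a small subunit of ATP synthase, differed by 1.06 ± 0.30 (SE), Atp5d of the same enzyme by 0.41 ± 0.11, and Cox5b of complex IV by 0.42 ± 0.12, each at adjusted p = 0.597 in limma. Without untreated replicate 1 they differed by 0.72, 0.31 and 0.33. As in complex I, the median deviation was lowest in untreated replicate 1, at -0.29, and lay between 0.03 and 0.07 in the finerenone arrays. Whether complex I differed from complexes II to V was not tested.

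**Figure D4:**
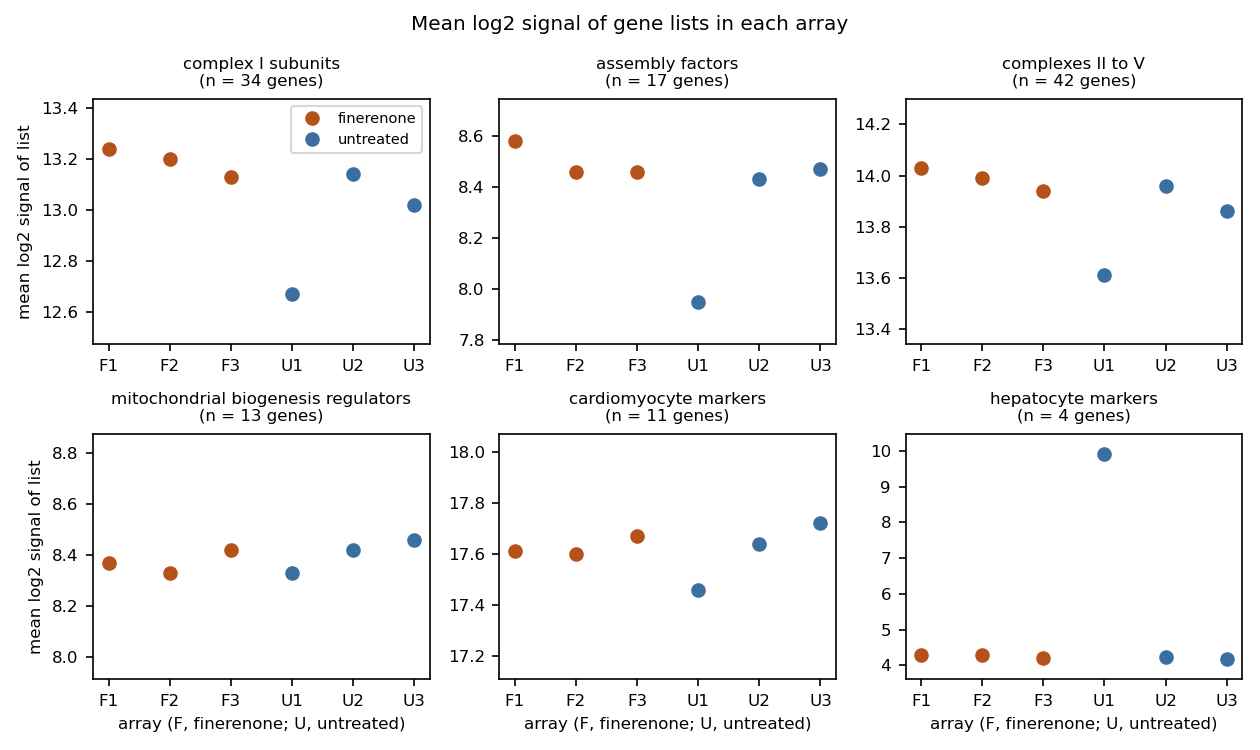
Mean log2 signal of 6 gene lists in each array (F, finerenone, left; U, untreated, right); each panel has its own scale, which does not start at 0. Untreated replicate 1 is lowest for complex I subunits (12.67, against 13.02 and 13.14 in the other untreated arrays), assembly factors and complexes II to V, and far highest for hepatocyte markers (9.91).

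Of the markers of other cell types, 0 passed the adjusted threshold in limma in either fit, and the list means of the groups overlapped. At an unadjusted p below 0.05 with all arrays, 3 macrophage markers were higher, and 2 endothelial and 2 adipocyte markers were lower. Over all genes, 5.69% were called higher and 2.12% lower. The 2 adipocyte markers, Adipoq and Plin1, had signals of 3.92 to 5.12, about or below the negative control medians of 5.04 to 5.33. Without untreated replicate 1, 1 macrophage and 1 skeletal muscle marker were higher at that level (4.5% of all genes). In that fit, 1 endothelial and 1 adipocyte marker were lower (1.93%). All 11 macrophage markers had differences above 0 (median 0.32, and 0.27 without untreated replicate 1), with list means of 8.99 to 9.34 in finerenone hearts and 8.64 to 9.07 in untreated hearts. All 10 measured endothelial markers (of 11 listed) were below 0 (median -0.39, and -0.26 without that array), with list means of 11.22 to 11.56 in finerenone hearts and 11.53 to 12.13 in untreated hearts. Fibroblast markers (8 of 9 measured) had a median of 0.16, and 0.13 without that array, and skeletal muscle markers (10 of 10) had -0.01 in both fits. The adipocyte median (5 of 6) was -0.09, and turned to 0.05 without it. Their part in the values of complex I was not tested.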

How the data were processed

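Per the submitters' processing notes, the authors obtained the deposited log2 signals by RMA, and the programs named are Affymetrix Expression Console and Transcriptome Analysis Console. RMA removes background, brings arrays to a shared distribution and combines a row's probes. For program versions and annotation build, nothing is given in the sources used here. Values ran from 1.94 to 19.93. Precision is limited by having 3 arrays in each group.

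Of 65956 transcript clusters, 30604 had a single symbol, 2146 had several and 33206 had none. Symbols came from the platform annotation and were updated by Entrez identifier, or by a unique synonym, to RefSeq genes of GRCm38.p6; where a gene had more than 1 cluster (429 genes), the brightest on average stood for it. Groups and replicate numbers came from the sample titles. The test was limma 3.58.1 in R 4.3.3 (lmFit, eBayes, two-sided, no covariate) with Benjamini-Hochberg adjustment over all 30063 genes and a threshold of 0.05. It was tested on simulated data in which the planted changes were all larger in size than any subunit difference. That run therefore says nothing of how often changes as small as those of the subunits would be called. Tables came from pandas 2.3.3 under Python 3.11.15, and plots from matplotlib 3.10.9.

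Values in every array are given for the core subunits, the 10 accessory subunits with the smallest unadjusted p, up to 5 further subunits with the lowest differences below 0, Ndufab1 and Ndufa4. Of each other pathway list, the 3 genes with the smallest unadjusted p are named. The members, lists and rules were chosen with earlier results of these data known, so counts and medians over a list are descriptions without a p. The promoters shown, and the motifs searched in them, were chosen after the values were seen. The labels call the mice biological replicates.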

Additional observations from a re-analysis of the deposited data

How the results depend on the processing

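Under 17 alternatives, 0 genes and 0 subunits passed the adjusted threshold in limma. With the main settings, 2347 genes had an unadjusted p below 0.05. The number was 4138 when all 65956 clusters were tested. It was 1482 of the 13987 genes at or above the negative control median, and 1306 of the 11346 with a mean of at least 6. The median difference of the subunits ran from 0.10 (without untreated replicate 1) to 0.40 (without untreated replicate 2), and was 0.17 after quantile normalization, 0.20 after cyclic loess, 0.27 after median centring, 0.23 with array weights and 0.13 with the trend over level and span removed; the cause was not tested. With the main settings, the subunits at an unadjusted p below 0.05, in either direction, numbered 6. With 1 array left out they numbered 1 to 12, where 1685 to 2783 of all genes were at that level. They numbered 4 after quantile normalization (2130 genes) or median centring (2211 genes), and 4 with a filter on dim genes. Those after quantile normalization included Ndufa9, which was lower there (-0.29, adjusted p = 0.679 in limma), but not Ndufa5 (0.17). Ndufa5 was 0.16 with the level and span trend removed, and was not at that level there either. Of 357 values of named subunits, 343 kept their direction and 14 turned. With single arrays left out, Ndufa13 ran from -0.23 to 0.05, Ndufa9 from -0.08 to 0.05, Ndufs1 from -0.13 to 0.09, and Ndufs7 from -0.03 to 0.20. Ndufs7 was -0.03 with the level and span trend removed and -0.01 after quantile normalization. Ndufb9, at the ceiling, was 0.05 and 0.01 in those settings and 0.00 with array weights and with any single array left out. With the replicate number as a block the median was 0.28 and 7 subunits had an unadjusted p below 0.05, as did 2312 genes. Same-numbered arrays deviated from their group means with correlations of -0.154, 0.059 and 0.058, so the numbers were not taken as pairs. Signals at the ceiling (Ndufb9, ND3) and near it (Ndufa4, ND2) can hide a rise.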
